A study of Mus musculus with 12 samples.

Results

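The comparison described here sets astrocytes taken 3 days after an experimental stroke against astrocytes taken 1 day after it. Its members are the 2 day 3 libraries and the 2 day 1 libraries, 4 of the 12 libraries of the series, chosen by their labels, and all 15774 genes of the count table. RNA sequencing was done on total RNA of cells isolated by fluorescence-activated cell sorting from the cerebral cortex of WT C57BL/6J mice. The day 3 group and the day 1 group (n = 2 each) had the same ischemic stroke: the distal middle cerebral artery was tied off for good and both common carotid arteries were then closed for 7 min. Another group of n = 2, sham mice with a lesion of the skull surface alone, served as the control without ischemia. The sort marker, the age and sex of the mice, any pooling of animals and whether the replicates are separate mice are not given in the sources used here. The p-values below therefore rest on the spread between samples, which may be technical. That spread was estimated from all 12 libraries of the series, those of days 7, 21 and 60 included.

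Astrocytes are the glial cells that clear glutamate, buffer potassium, supply lipids and line blood vessels and scars with their processes. After ischemia they become reactive: they enlarge, raise intermediate filament genes such as Gfap and Vim, secrete cytokines, and some near the lesion divide. Over the same days microglia are activated, monocytes from the blood enter the tissue and become macrophages that take up debris, and fibroblasts of the meninges and vessels begin to lay down collagen. Any of these cells can be carried along in a sort, and in bulk samples like these fewer cells of a type and less RNA per cell cannot be told apart.

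The day 3 libraries held 13006008 and 102571778 counts and the day 1 libraries 15405502 and 97056596. Replicate 2 was thus 7.89 times as deep as replicate 1 at day 3 and 6.30 times at day 1. Across genes, log2 levels of day 3 replicates 1 and 2 correlated at 0.879 and those of day 1 at 0.891, and libraries of the 2 days with the same replicate number correlated at 0.89 and 0.904, so the replicate number separated libraries about as much as the day did. Levels are given as CPM, counts scaled to a library total of 1000000 with TMM factors, and changes as log2 fold changes of day 3 over day 1 ± standard error. A change was called at a Benjamini-Hochberg adjusted p under 0.05 in edgeR's quasi-likelihood test, which gave every adjusted p below unless another tool is named. All 31 astrocyte identity genes were found in the count table, and none had 0 counts in both libraries of either day. Their sum, which includes the reactive gene Gfap, took 0.926% and 1.59% of the counts of the day 3 libraries and 1.04% and 2.76% of the day 1 libraries. In the sham libraries it took 1.875% and 1.662%.

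Between the 2 days, genes of cell division and of macrophages and microglia rose, and fewer genes fell, Il11, Stc1 and Odc1 among them. Of 15635 genes tested, 558 (3.57%) changed: 483 (3.09%) were higher and 75 (0.48%) lower at day 3. The 2 day 3 libraries lay on one side of the 2 day 1 libraries for all 558, which was also so for 37.4% of all genes tested. The median log2 fold change of all genes was -0.03, and 47.8% of genes had a positive one. Lists of genes with shared functions, set out in order below, held 99 of the 483 higher genes and 23 of the 75 lower ones.

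How many genes passed depended on the model. With the replicate number as a block the fit called 1313 genes (991 higher and 322 lower), all 558 among them. A fit of the 4 libraries alone called 0 genes (1452 of 14891 had an unadjusted p under 0.05), and DESeq2 on all 12 libraries called 1436. The count was 239 when day 1 replicate 1 was left out, 327 when day 1 replicate 2 was, 318 when day 3 replicate 2 was and 362 when day 21 replicate 2 was. The higher genes then numbered 208, 278, 301 and 333. The lower genes numbered 17 without day 3 replicate 2 and 116 without day 3 replicate 1. They numbered 31 and 49 without day 1 replicate 1 or 2, 31 and 34 without day 7 replicate 1 or 2, 31 and 29 without day 21 replicate 1 or 2, and 45 and 47 without sham replicate 1 or 2. In every one of 12 fits that left out 1 library, 149 of the calls held, 147 of them higher and 2 lower. Of 95 called genes described below, 32 are among those 149, and for the others the libraries whose removal ended the call are given.

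**Figure D1:**
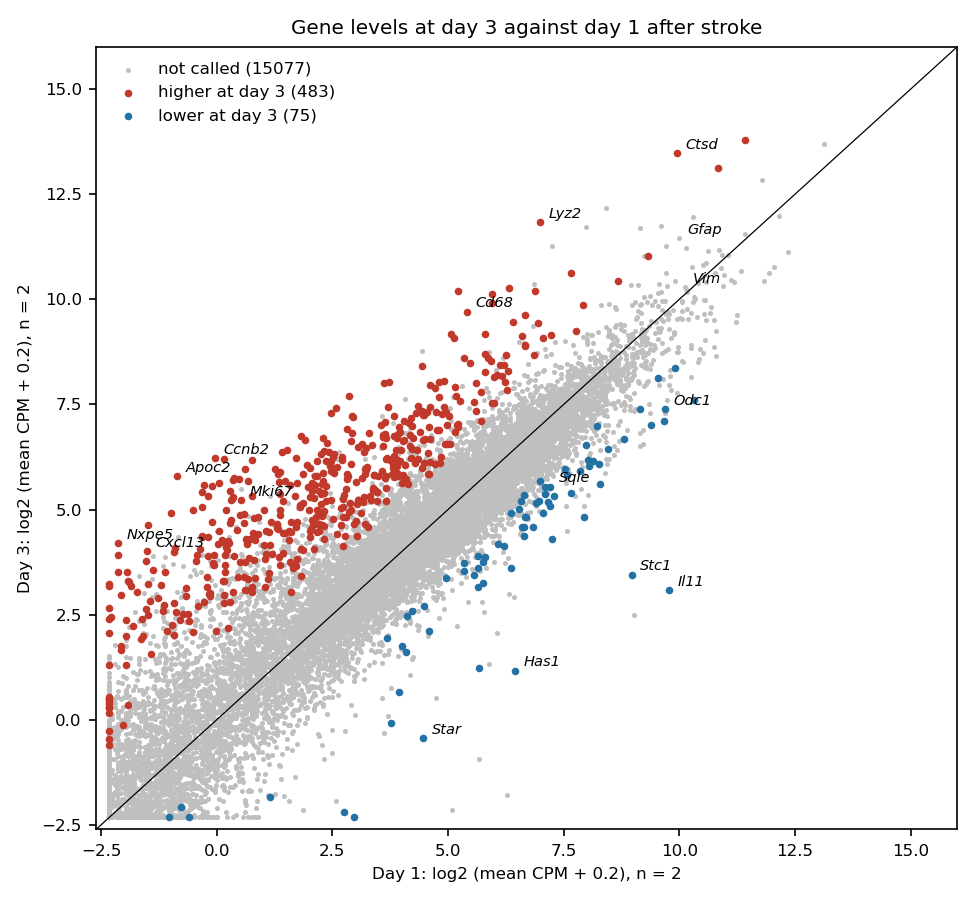
Mean level of each of the 15635 tested genes at day 3 (vertical axis) and at day 1 (horizontal axis), both as log2 of CPM + 0.2 over n = 2 libraries; the line marks equal levels. The 483 genes called higher (red) lie above the line and the 75 called lower (blue) lie below it, with Il11, Stc1 and Has1 far from the line and Gfap and Vim not called.

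Of 42 gene lists, that of mitosis had the highest median. Chromosome segregation needs cyclin B and its kinase Cdk1 to start mitosis, kinetochore proteins and kinesin motors to move chromosomes, and the passenger protein survivin to complete division. Of 30 mitosis and cytokinesis genes, 27 (90%) rose and 0 fell, against 3.09% and 0.48% of all genes, and the 3 others also had positive values. Both day 3 libraries lay above both day 1 libraries for all 30, which was so for 20.4% of all genes. The list's median log2 fold change was 4.76. Its sum took 0.134% and 0.227% of counts at day 3, 0.00678% and 0.0089% at day 1 and 0.00856% and 0.0125% in sham. At day 1, 25 of the 30 had a mean below the sham mean, and for 15 both day 1 libraries lay below both sham libraries. At day 3 both libraries lay above both sham libraries for all 30. The share of all genes that lay apart from sham was not taken. Counts against sham, here and for the lists below, are therefore descriptions without a background.

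Ccnb2, a mitotic cyclin gene at chromosome 9, 70407692 to 70421547 of mm10 (GRCm38), stood at 51.6 and 98.4 CPM at day 3, against 0.556 and 0.994 CPM at day 1 (log2 change 6.54 ± 0.61, adjusted p = 0.00188). Its partner kinase gene Cdk1 (chromosome 10, 69335146 to 69352938) stood at 36 and 88.5 CPM at day 3, against 0.5 and 2.16 CPM at day 1 (log2 change 5.48 ± 0.80, adjusted p = 0.0056). Birc5, which encodes survivin, had 65.5 and 82 CPM at day 3, against 1.06 and 0.771 CPM at day 1 (log2 change 6.36 ± 0.57, adjusted p = 0.00188). Each of these genes was far higher in both day 3 libraries than in either day 1 library, and the calls held without any 1 of the 12 libraries. Ccnb1, the other main B-type cyclin, had 16.7 and 46.1 CPM at day 3, against 0.445 and 0.557 CPM at day 1 (log2 change 5.94 ± 0.76, adjusted p = 0.00298). Mki67, the gene of the proliferation marker Ki-67, had 35.7 and 38.5 CPM at day 3, against 0.611 and 1.87 CPM at day 1 (log2 change 4.85 ± 0.63, adjusted p = 0.00333). Both calls held in the same way. Top2a, the topoisomerase that untangles replicated DNA, had 42.3 and 122 CPM at day 3, against 2.28 and 8.04 CPM at day 1 (log2 change 3.98 ± 0.79, adjusted p = 0.0229). The Top2a call ended without day 1 replicate 1 (adjusted p = 0.12) or day 3 replicate 2 (0.103). The spindle motor gene Kif11 had 28.9 and 37.1 CPM at day 3, against 0.945 and 0.251 CPM at day 1 (log2 change 5.91 ± 1.32, adjusted p = 0.0385). For both genes the day 3 libraries lay clear of the day 1 libraries, but the call of Kif11 ended without either day 1 library, either day 3 library, either day 7 library or either day 21 library (adjusted p between 0.0569 and 0.149).

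Several more genes of division, outside the list, were among the larger rises of the comparison. Esco2 encodes an acetyltransferase that locks sister chromatids together. It had 10.7 and 11.8 CPM at day 3, against 0.0556 and 0 CPM at day 1, which is 1460 counts against 1 and a ratio of 1464 with a 95% exact counting interval of 262 to 57882. Casc5, the kinetochore scaffold gene also called Knl1, had 9.43 and 20.3 CPM at day 3, against 0 and 0.0557 CPM at day 1 (log2 change 8.43 ± 0.94, adjusted p = 0.00188). Cep55, needed for the final cut between daughter cells, had 25.8 and 23 CPM at day 3, against 0.278 and 0.0372 CPM at day 1 (log2 change 7.68 ± 1.06, adjusted p = 0.00423). Hmmr, whose product binds hyaluronan and the spindle, had 36.7 and 58.9 CPM at day 3, against 0.334 and 0.91 CPM at day 1 (log2 change 6.18 ± 0.92, adjusted p = 0.00609). All 4 genes were under 1 CPM in each day 1 library, and the calls held without any 1 library. Kif15, another spindle motor gene, had 11.1 and 16.1 CPM at day 3, against 0.167 and 0.13 CPM at day 1 (log2 change 6.55 ± 1.38, adjusted p = 0.0302). The Kif15 call ended without either day 1 library, day 3 replicate 2, either day 7 library or either day 21 library (adjusted p between 0.0532 and 0.151). Knstrn, a kinetochore adaptor gene, had 27.9 and 56.6 CPM at day 3, against 0.778 and 0.418 CPM at day 1 (log2 change 6.20 ± 1.32, adjusted p = 0.0316). The Knstrn call ended without either day 1 library, day 3 replicate 2, either day 7 library or either day 21 library (adjusted p between 0.0537 and 0.137). Sapcd2, which acts in spindle orientation, had 4.43 and 18 CPM at day 3, against 0 and 0.121 CPM at day 1 (log2 change 7.08 ± 1.48, adjusted p = 0.0293). The Sapcd2 call ended without either day 1 library, day 3 replicate 2, either day 7 library or either day 21 library (adjusted p between 0.0511 and 0.13). Another of the larger rises, not one of the division genes, was Nxpe5, a gene of the neurexophilin and PC-esterase domain family. It had 20.9 and 15.5 CPM at day 3, 0.0556 and 0 CPM at day 1 and 0 and 0.0385 CPM in sham. Its 2027 counts against 1 give a ratio of 2033 with an interval of 365 to 80346, and its call (adjusted p = 0.0034) held without any 1 library.

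Genes of DNA replication rose as well. Of 30 S-phase genes, 9 (30%) rose and 0 fell, all 30 had a positive value, and the median was 1.63. With the replicate block 19 rose. Without 1 library the count lay between 2 (without day 1 replicate 1) and 12 (without day 3 replicate 1). It was 3 without day 1 replicate 2 or day 3 replicate 2, 4 without either library of day 7 or day 21, 6 without either sham library and 9 without either day 60 library. For 17 of the 30 S-phase genes both day 1 libraries already lay above both sham libraries, against 1 of the 30 mitosis genes. Tk1, the thymidine kinase of the salvage pathway, had 30.5 and 29.8 CPM at day 3, against 0.278 and 0.325 CPM at day 1 (log2 change 6.61 ± 0.76, adjusted p = 0.00217), held without any 1 library. Lig1, which joins Okazaki fragments, had 40.4 and 59.2 CPM at day 3, against 6.78 and 9.04 CPM at day 1 (log2 change 2.65 ± 0.38, adjusted p = 0.00546), held likewise. On the opposite strand, exons of Lig1 overlap the coding gene Zswim9 and those of Tk1 overlap Afmid. Their reads could be shared if the counting was not stranded. Rrm2, a subunit of ribonucleotide reductase, had 99.2 and 215 CPM at day 3, against 2.95 and 7.69 CPM at day 1 (log2 change 4.87 ± 0.75, adjusted p = 0.0068). The Rrm2 call ended without day 1 replicate 1 (adjusted p = 0.0558). Ccne1, the cyclin of S-phase entry, had 11.9 and 32.2 CPM at day 3, against 3.45 and 5.1 CPM at day 1 (log2 change 2.36 ± 0.52, adjusted p = 0.0375). The Ccne1 call ended without any 1 library other than day 3 replicate 1 or day 60 replicate 1 or day 60 replicate 2 (adjusted p between 0.0539 and 0.202). All 4 genes had both day 3 libraries above both day 1 libraries. The others that rose were Mcm5 and Mcm7 of the replicative helicase, its assembly factor Gins2, thymidylate synthase (Tyms) and the histone chaperone subunit Chaf1a.

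Promoters of division genes are shown because these genes made up the list with the highest median. In textbook models the MuvB complex binds the cell cycle homology region (CHR) and the trimeric factor NF-Y binds CCAAT boxes in promoters of mitotic genes, while E2F factors bind promoters of replication genes. The sequences are from RefSeq on GRCm38.p6 and cover the 250 bases before each annotated start, 5′ to 3′ along the gene's strand. Capitals mark TTTGAA or TTCGAA (CHR) and CCAAT on either strand in the first 4, and TTCCCGC or TTGGCGC (E2F) on either strand in the last pair. All 6 were picked because they hold these motifs. The same stretch of the called S-phase genes Rrm2, Tyms, Tk1, Lig1 and Ccne1 holds no E2F motif. The promoters shown are Cdk1 (chr10:69352913-69353162 on the minus strand), Mki67 (chr7:135716380-135716629 on the minus strand), Kif11 (chr19:37376132-37376381 on the plus strand), Ccnb2 (chr9:70421555-70421804 on the minus strand), Mcm5 (chr8:75109259-75109508 on the plus strand) and Chaf1a (chr17:56040166-56040415 on the plus strand).
Cdk1: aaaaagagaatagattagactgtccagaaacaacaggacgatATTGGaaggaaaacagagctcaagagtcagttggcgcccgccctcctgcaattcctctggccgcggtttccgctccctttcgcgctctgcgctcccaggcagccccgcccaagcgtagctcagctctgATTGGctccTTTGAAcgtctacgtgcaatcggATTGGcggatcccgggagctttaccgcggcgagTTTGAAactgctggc
Mki67: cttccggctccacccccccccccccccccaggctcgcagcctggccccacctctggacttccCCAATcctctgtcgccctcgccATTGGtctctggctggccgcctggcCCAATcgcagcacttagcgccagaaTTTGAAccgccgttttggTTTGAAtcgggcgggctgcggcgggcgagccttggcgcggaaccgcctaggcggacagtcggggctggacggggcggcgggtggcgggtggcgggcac
Kif11: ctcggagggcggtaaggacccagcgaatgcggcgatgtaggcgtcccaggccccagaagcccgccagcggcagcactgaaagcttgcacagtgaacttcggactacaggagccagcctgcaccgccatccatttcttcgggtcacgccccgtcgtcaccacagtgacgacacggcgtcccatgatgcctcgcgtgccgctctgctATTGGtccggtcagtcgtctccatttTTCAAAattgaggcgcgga
Ccnb2: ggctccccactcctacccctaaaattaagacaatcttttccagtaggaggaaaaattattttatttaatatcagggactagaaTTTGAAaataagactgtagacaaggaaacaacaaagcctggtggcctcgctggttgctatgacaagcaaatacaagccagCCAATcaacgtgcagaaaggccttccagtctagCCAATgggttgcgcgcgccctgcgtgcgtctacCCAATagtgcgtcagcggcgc
Mcm5: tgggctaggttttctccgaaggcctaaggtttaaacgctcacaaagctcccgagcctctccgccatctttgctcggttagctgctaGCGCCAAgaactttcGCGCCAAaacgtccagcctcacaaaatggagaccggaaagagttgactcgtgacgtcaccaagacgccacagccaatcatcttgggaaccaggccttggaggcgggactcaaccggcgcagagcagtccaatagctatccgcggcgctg
Chaf1a: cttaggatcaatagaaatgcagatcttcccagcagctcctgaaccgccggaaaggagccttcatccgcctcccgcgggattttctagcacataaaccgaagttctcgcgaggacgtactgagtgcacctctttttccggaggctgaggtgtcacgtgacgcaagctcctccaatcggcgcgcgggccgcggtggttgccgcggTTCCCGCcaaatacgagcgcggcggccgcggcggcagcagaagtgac

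Motifs were counted in windows of 300 bases, from 250 before to 50 after the start, with 1 window per gene. Of the 27 mitosis genes with a window, 21 (77.8%) held a CHR, against 19.4% of all 27025 genes of the promoter table. The CCAAT box was held by 77.8% of them, against 37.9% of all, and both motifs by 66.7%, against 7.7% of all. The CCAAT box was about as frequent in other lists, at 75% of MHC class I genes, 71.4% of ER stress genes and 66.7% of S-phase genes. Of the 24 S-phase genes with a window, 13 (54.2%) held an E2F motif, against 6.93% of all genes and 14.8% of the mitosis genes. On the reverse strand an E2F motif can share bases with CCAAT, which happened in 8.33% of the S-phase windows, 7.41% of the mitosis windows (2 of the 4 mitosis genes with an E2F match) and 0.5% of all windows. A CHR stood in 26.3% of the 19 monocyte and macrophage markers with a window, 20.8% of the S-phase genes and 10% of the 20 phagocyte and lysosome genes. These are matches of letters in fixed windows, not measured binding sites.

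**Figure D2:**
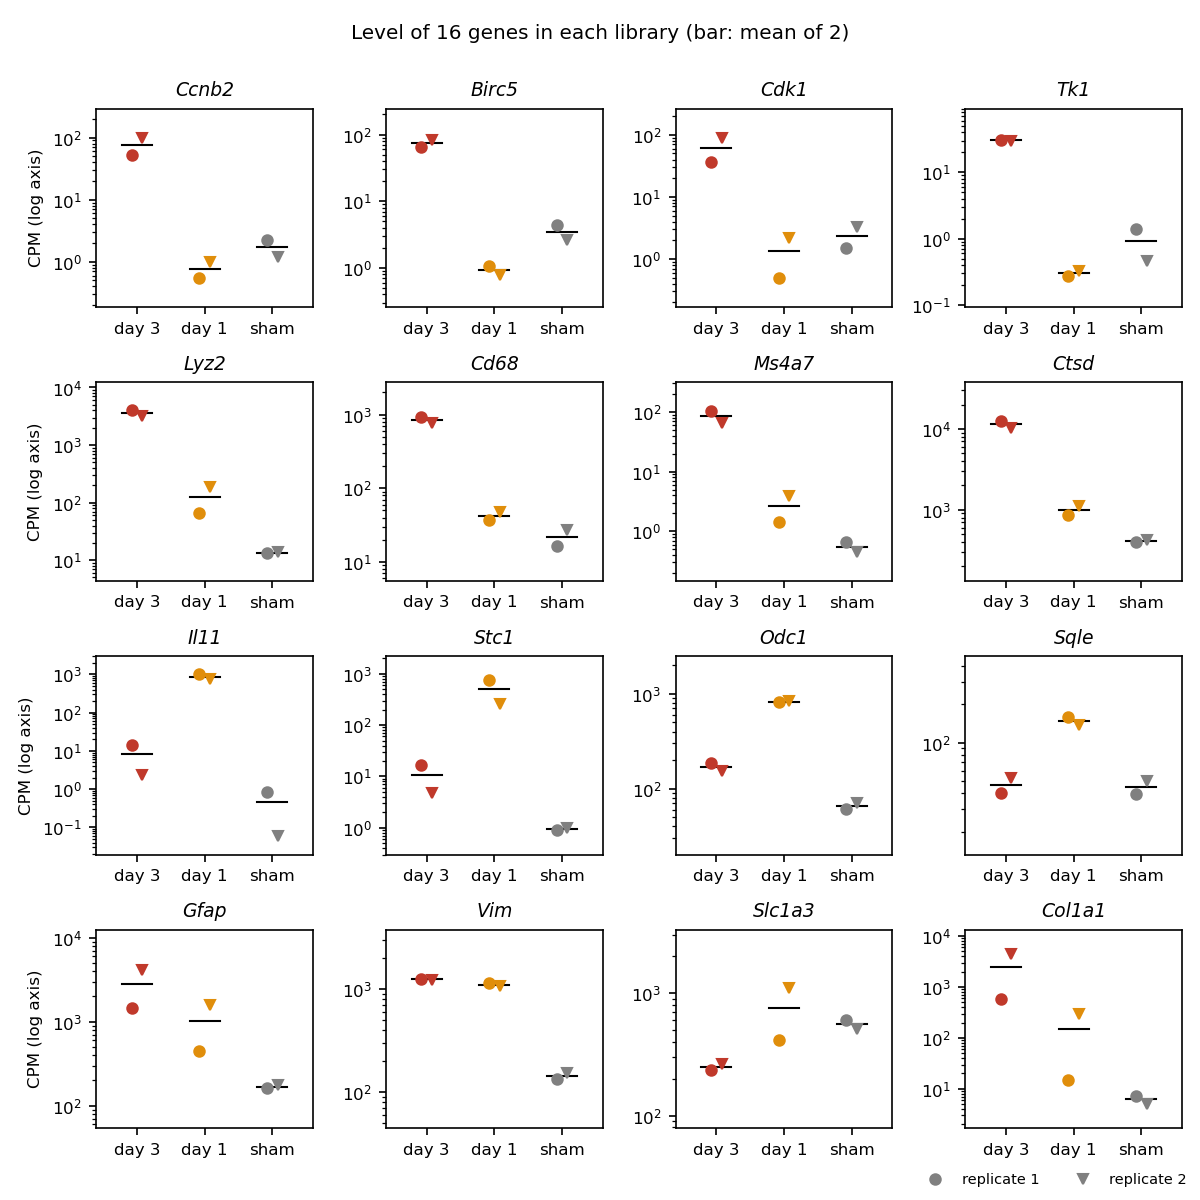
CPM on a log axis of 16 genes in the 2 libraries of day 3, day 1 and sham; circles are replicate 1, triangles replicate 2 and bars the mean. Division genes (top row) and phagocyte genes (second row) are highest at day 3, the genes of the row below are highest at day 1, and in the bottom row Vim lies between 1069 and 1269.9 CPM on both days while Gfap and Col1a1 differ several-fold between replicates of 1 day.

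Macrophage and phagocyte genes made up the other large group of rises. Of 22 markers of infiltrating monocytes and macrophages, 10 (45.5%) rose and 0 fell, with a median of 3.06, and of 25 genes of activated phagocytes and lysosomes 13 (52%) rose and 0 fell, with a median of 2.29. The macrophage list took 0.773% and 0.53% of counts at day 3, 0.0706% and 0.108% at day 1 and 0.0083% and 0.0308% in sham. The phagocyte list took 6.77% and 5.08% of counts at day 3, against 1.3% and 1.41% at day 1. No member of either list had 0 counts in both libraries of a day. Of the 22 markers, 20 had a positive value and 2 a negative one, the lowest at -2.86. The monocyte markers Ccr2 and Ly6c2 were not called. Ly6c2 had 6.9 and 60.7 CPM at day 3, against 1.22 and 492 CPM at day 1, so it rose within replicate 1 and fell within replicate 2. The mitosis genes rose over the same interval, and which cells carried them, and what part marker genes of other cells had in any of these rises, was not tested.

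Lyz2 encodes the lysozyme of myeloid cells (chromosome 10, 117277331 to 117282321). It stood at 4108 and 3194 CPM at day 3, against 65.9 and 187 CPM at day 1 (log2 change 4.85 ± 0.62, adjusted p = 0.00298). The lysosomal membrane gene Cd68 (chromosome 11, 69664213 to 69666153) had 915 and 759 CPM at day 3, against 36.8 and 47.3 CPM at day 1 (log2 change 4.32 ± 0.41, adjusted p = 0.00188). Emr1, the gene of the macrophage antigen F4/80, had 137 and 155 CPM at day 3, against 8.39 and 6.7 CPM at day 1 (log2 change 4.28 ± 0.37, adjusted p = 0.00188). In all 3 the day 3 libraries differed little from each other and lay far above day 1. Ms4a7, a membrane protein gene of macrophages, had 104 and 66 CPM at day 3, against 1.45 and 3.86 CPM at day 1 (log2 change 4.97 ± 0.51, adjusted p = 0.00188). Cd5l, a secreted macrophage protein, had 56.9 and 42.5 CPM at day 3, against 0.723 and 0.957 CPM at day 1 (log2 change 5.86 ± 0.62, adjusted p = 0.00211), and 0 counts in both sham libraries. These 5 calls held without any 1 library. The other macrophage markers that rose were Plac8, Pf4, Fcgr1, Fcgr3, Ms4a6c and Ptprc.

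Lysosomal proteases were among the most abundant genes that rose. Ctsd, the cathepsin D gene, had 12573 and 10246 CPM at day 3, against 851 and 1114 CPM at day 1 (log2 change 3.54 ± 0.41, adjusted p = 0.00226). Ctsb, the cathepsin B gene, had 9896 and 7798 CPM at day 3, against 1953 and 1672 CPM at day 1 (log2 change 2.29 ± 0.38, adjusted p = 0.00938). Trem2, a lipid-sensing receptor of microglia and macrophages, had 296 and 224 CPM at day 3, against 8.34 and 17.7 CPM at day 1 (log2 change 4.32 ± 0.48, adjusted p = 0.00188), and its signalling adaptor Tyrobp had 338 and 175 CPM at day 3, against 10.2 and 14 CPM at day 1 (log2 change 4.41 ± 0.49, adjusted p = 0.00188). All 4 calls held without any 1 library. Exons of Ctsd overlap Gm49369 on the same strand and those of Ctsb overlap Fdft1 on the opposite strand, and their reads may be counted in common. Gpnmb, a glycoprotein of lipid-laden phagocytes, had 1630.5 and 723 CPM at day 3, against 5.34 and 68.9 CPM at day 1 (log2 change 4.98 ± 1.01, adjusted p = 0.0255). The Gpnmb call ended without day 3 replicate 1 (adjusted p = 0.064). Its day 1 libraries differed by more than 10 times. Spp1, which encodes osteopontin, had 12064 and 16448 CPM at day 3, against 3349.6 and 2161 CPM at day 1 (log2 change 2.37 ± 0.48, adjusted p = 0.0246). The Spp1 call ended without either day 1 library, day 3 replicate 2, day 7 replicate 1 or day 21 replicate 1 (adjusted p between 0.0515 and 0.0878). The list also held rises of Lgals3, Cst7, Clec7a, Ctsl, Ctsz and Fcer1g, genes of a lectin, a protease inhibitor, a fungal receptor, 2 more cathepsins and a shared Fc receptor chain.

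Other genes of lipid handling and of macrophages lay outside the lists. Apoc2, the cofactor of lipoprotein lipase, had 78.7 and 32.2 CPM at day 3, against 0.278 and 0.427 CPM at day 1 (log2 change 7.23 ± 0.83, adjusted p = 0.00212), and its exons overlap Gm44805 on the same strand. Wfdc17, a small secreted protein of mouse macrophages, had 70.6 and 23.9 CPM at day 3, against 0.723 and 0.752 CPM at day 1 (log2 change 5.99 ± 0.74, adjusted p = 0.00271). Both were under 1 CPM in each day 1 library, and both calls held without any 1 library. Apod, a lipid-binding apolipoprotein, had 2177 and 2028 CPM at day 3, against 637 and 636 CPM at day 1 (log2 change 1.72 ± 0.38, adjusted p = 0.0379). Its replicates were close on both days, and the call ended without any 1 of the 12 libraries (adjusted p between 0.0528 and 0.129).

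Markers of resting microglia rose as well, from levels below sham. Of 15 such markers, 11 (73.3%) rose and 0 fell, with a median of 2.94. At day 1, 13 of the 15 had a mean below the sham mean, and for 12 both day 1 libraries lay below both sham libraries. The share of all genes below sham at day 1 was not taken. The count dropped to 4 or 5 when day 1 replicate 1 or 2 was left out and to 6 when day 3 replicate 1 was, and it was 7 with libraries scaled by their totals alone. Aif1, the gene of the microglial protein Iba1, had 109 and 58.6 CPM at day 3, against 3.34 and 6.32 CPM at day 1 (log2 change 4.10 ± 0.54, adjusted p = 0.00336) and 12.8 and 18.2 CPM in sham, and its call held without any 1 library. P2ry12, the purine receptor that defines resting microglia, had 87.3 and 42.9 CPM at day 3, against 4.22 and 6.33 CPM at day 1 (log2 change 3.62 ± 0.58, adjusted p = 0.00907), with 80.5 and 62.4 CPM in sham. The day 3 libraries of P2ry12 overlapped its sham libraries, and the call ended without day 1 replicate 1 (adjusted p = 0.0786). Its exons overlap Med12l on the opposite strand. Gpr34, a lipid receptor of microglia, had 73.3 and 54.6 CPM at day 3, against 4.61 and 7.09 CPM at day 1 (log2 change 3.44 ± 0.77, adjusted p = 0.0385). The Gpr34 call ended without either day 1 library, either day 3 library, either day 21 library or either sham library (adjusted p between 0.0574 and 0.209). Tmem119, Siglech, Csf1r, Olfml3, Fcrls and Selplg rose too, and Trem2 is also on this list. Sparc, a matrix protein gene on the list that other cells also express, held most of the list's counts, so the list's share of counts, 0.896% and 0.781% at day 3 and 0.641% and 0.479% at day 1, says little about the other members.

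Complement genes and genes of antigen presentation followed. C1q, built from 3 chains, starts the classical complement pathway and tags debris and synapses. Of 18 complement genes, 7 (38.9%) rose and 0 fell, with a median of 2.20. With the replicate block 11 rose, and the count was 3 without day 1 replicate 1 and 2 without day 1 replicate 2. C1qa had 832 and 328 CPM at day 3, against 37 and 29 CPM at day 1 (log2 change 4.13 ± 0.63, adjusted p = 0.00649). C1qb had 1785 and 686 CPM at day 3, against 97.3 and 62.7 CPM at day 1 (log2 change 3.95 ± 0.64, adjusted p = 0.0093). C1qc had 1289 and 630.4 CPM at day 3, against 73.8 and 49.3 CPM at day 1 (log2 change 3.96 ± 0.60, adjusted p = 0.00649). The 3 chain genes rose by nearly the same log2 amount. The call of C1qc held without any 1 library, while that of C1qa ended without day 1 replicate 2 (adjusted p = 0.0515) or day 1 replicate 1 (0.0505), and that of C1qb ended without day 1 replicate 2 (adjusted p = 0.0604) or day 1 replicate 1 (0.052). Besides the C1q genes, C2, Cfp (properdin) and the receptor genes C3ar1 and C5ar1 rose. C3ar1, the receptor of the fragment C3a, had 175 and 84.9 CPM at day 3, against 15.9 and 7.28 CPM at day 1 (log2 change 3.49 ± 0.64, adjusted p = 0.0157). The C3ar1 call ended without day 1 replicate 2 (adjusted p = 0.0825). C3 itself had 12.3 and 2.32 CPM at day 3, against 0.334 and 2.49 CPM at day 1 (log2 change 2.31 ± 0.94, adjusted p = 0.256), and its libraries of the 2 days overlapped. Serping1, the C1 inhibitor gene, had 229 and 473 CPM at day 3, against 105 and 107 CPM at day 1 (log2 change 1.72 ± 0.42, adjusted p = 0.0565), and it passed with the replicate block (adjusted p = 0.0126).

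Of 14 genes of MHC class II presentation 2 (14.3%) rose and 0 fell, with 8 under the replicate block, 1 without day 3 replicate 1, 4 without day 3 replicate 2, 13 with a positive value and a median of 2.05. Ctss, the protease that cuts the class II invariant chain, had 1398 and 822 CPM at day 3, against 49.9 and 73.3 CPM at day 1 (log2 change 4.17 ± 0.42, adjusted p = 0.00188), held without any 1 library. H2-DMa, a subunit of the peptide exchanger of class II, had 40.1 and 22.5 CPM at day 3, against 5.34 and 9.25 CPM at day 1 (log2 change 2.09 ± 0.41, adjusted p = 0.0229). The H2-DMa call ended without day 1 replicate 1 (adjusted p = 0.127) or day 3 replicate 1 (0.0779). Exons of H2-DMa overlap Brd2 on the opposite strand. In both genes the day 1 libraries lay below both sham libraries, at 104 and 126 CPM for Ctss and 27.5 and 22 CPM for H2-DMa. Of 14 MHC class I genes, 0 rose and 0 fell in edgeR's test (4 had an unadjusted p under 0.05) and in DESeq2, and with the replicate block 1 fell.

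Chemokines moved in both directions. Of 19 chemokines and growth factors that draw monocytes and lymphocytes, 5 (26.3%) rose and 2 (10.5%) fell. Cxcl13, which attracts B cells, had 17.7 and 14.4 CPM at day 3, against 0.0556 and 0.251 CPM at day 1 (log2 change 6.43 ± 0.77, adjusted p = 0.00267), held without any 1 library. Ccl4, a chemokine of macrophages, had 206 and 108 CPM at day 3, against 26.9 and 12.3 CPM at day 1 (log2 change 3.01 ± 0.51, adjusted p = 0.0115). The Ccl4 call ended without day 1 replicate 2 (adjusted p = 0.0572). Ccl8, a monocyte chemokine, had 5.25 and 4.65 CPM at day 3, against 0.111 and 0 CPM at day 1. Its 592 counts against 2 give a ratio of 297 with an interval of 81.8 to 2457, and its call (adjusted p = 0.0438) ended without any 1 library other than day 1 replicate 1 or sham replicate 1 or sham replicate 2 (adjusted p between 0.0562 and 0.121). Ccl2, the main ligand of the monocyte receptor Ccr2, fell, with 66.5 and 31.3 CPM at day 3, against 407 and 215 CPM at day 1 (log2 change -2.67 ± 0.54, adjusted p = 0.0255). Its day 3 libraries lay far below day 1 but above sham (0.179 and 0.577 CPM), and the call ended without day 3 replicate 2 (adjusted p = 0.132) or day 1 replicate 1 (0.105). The list members Cxcl16, Ccl6 and Csf1 are named after their values were seen. Cxcl16, a chemokine also made as a membrane protein, had 117 and 81.3 CPM at day 3, against 16.6 and 15.5 CPM at day 1 (log2 change 2.63 ± 0.35, adjusted p = 0.0039), held without any 1 library. Exons of Cxcl16 overlap Zmynd15 on the opposite strand. Ccl6, a chemokine of mouse macrophages, had 104 and 99.7 CPM at day 3, against 22.6 and 22.5 CPM at day 1 (log2 change 2.18 ± 0.38, adjusted p = 0.012). The Ccl6 call ended without day 1 replicate 1 (adjusted p = 0.081) or day 1 replicate 2 (0.0598). Csf1, the growth factor of macrophages and microglia, had 72.8 and 40.7 CPM at day 3, against 249 and 133 CPM at day 1 (log2 change -1.75 ± 0.42, adjusted p = 0.0492). The Csf1 call ended without any 1 library other than day 1 replicate 2 (adjusted p between 0.0503 and 0.224). The first pair rose and Csf1 fell, with no overlap of the 2 days. Without day 1 replicate 2 the list had 2 rises and 2 falls, and without day 1 replicate 1 or day 3 replicate 2 it had 0 falls.

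Few neutrophil markers changed. Of 15 tested, 0 rose and 1 fell (2 rose and 1 fell with the replicate block): Lcn2, which reactive astrocytes also express. Lcn2 encodes the siderophore-binding protein lipocalin 2. It had 45.4 and 90.7 CPM at day 3, against 284 and 331 CPM at day 1 (log2 change -2.18 ± 0.44, adjusted p = 0.0255), and the call ended without day 3 replicate 1 (adjusted p = 0.105), day 1 replicate 2 (0.0803) or day 1 replicate 1 (0.066). S100a8, a calcium-binding protein of neutrophils, had 34.7 and 40.1 CPM at day 3, against 5.45 and 5.23 CPM at day 1 (log2 change 2.81 ± 0.82, adjusted p = 0.103). S100a8 missed the threshold, although both day 3 libraries lay above both day 1 libraries, and it passed with the replicate block (adjusted p = 0.0355) and without either sham library (0.0123 and 0.0109). The neutrophil list took 0.0316% and 0.0317% of counts at day 3 and 0.0425% and 0.0439% at day 1, with Elane at 0 counts on both days and Mpo at 0 at day 1. Lcn2 held most of the list's counts at day 1, so this share says little about the other members. Of the 15 tested, 9 had a positive value and 5 a negative one. For 7 both day 3 libraries lay above both day 1 libraries, which was so for 20.4% of all genes, and for 1 both lay below. Of 18 T, NK and B cell markers, 0 changed in edgeR's test (1 had an unadjusted p under 0.05) and by DESeq2, with Cd8a at 0 counts at day 3 and Cd3e, Gzmb and Prf1 at 0 at day 1.

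**Figure D3:**
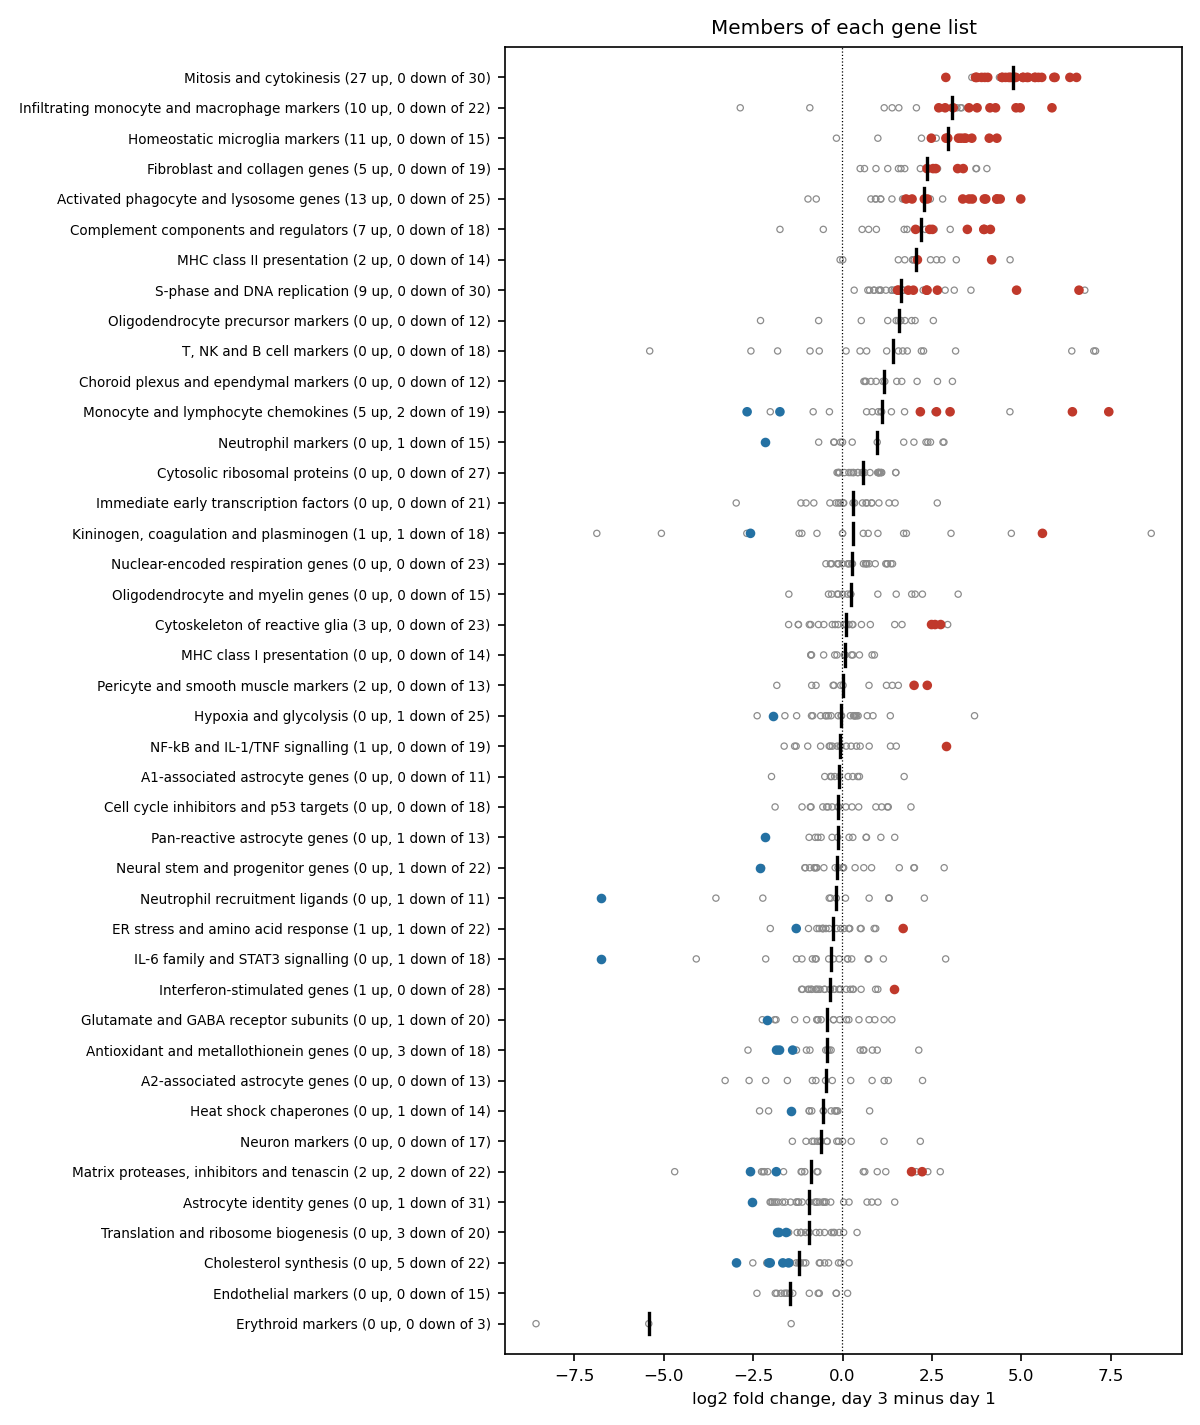
Log2 fold change of day 3 over day 1 for the tested members of 42 gene lists, ordered by list median (vertical bars); filled red and blue points are members called higher and lower, open points were not called, and the dotted line is the median of all genes, -0.03. Values of genes with 0 counts on a day, found in the neutrophil, lymphocyte, erythroid and kininogen lists, depend on the prior count of the fit, so medians of those lists are not read. Mitosis genes lie furthest to the right with a median of 4.76, and cholesterol genes, with 5 falls and a median of -1.21, lie near the lower end.

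Il11, Stc1 and Has1 were among the larger falls. Il11, a cytokine of the interleukin 6 family (chromosome 7, 4772373 to 4782859), had 14.2 and 2.27 CPM at day 3, against 1005 and 743 CPM at day 1 (log2 change -6.75 ± 1.33, adjusted p = 0.0228). Its level in sham was 0.836 and 0.0577 CPM, below both day 3 libraries. The call ended without day 3 replicate 2 (adjusted p = 0.106) or day 1 replicate 1 (0.0568). Stc1, which encodes the secreted glycoprotein stanniocalcin 1 (chromosome 14, 69029238 to 69041804), had 16.7 and 4.79 CPM at day 3, against 739 and 262 CPM at day 1 (log2 change -5.55 ± 0.82, adjusted p = 0.00572), with 0.896 and 0.981 CPM in sham. Its fall is 1 of the 2 that held without any 1 library. Has1, a hyaluronan synthase, had 3.29 and 0.804 CPM at day 3, against 119 and 55.3 CPM at day 1 (log2 change -5.46 ± 0.94, adjusted p = 0.0119). The Has1 call ended without day 3 replicate 2 (adjusted p = 0.0662) or day 1 replicate 1 (0.0547). Nppc, the precursor of C-type natriuretic peptide, had 0.38 and 1.11 CPM at day 3, against 17.4 and 9.6 CPM at day 1 (log2 change -4.12 ± 0.75, adjusted p = 0.0157). The Nppc call ended without day 1 replicate 1 (adjusted p = 0.0936) or day 3 replicate 1 (0.0561). Igfbp3, a carrier of insulin-like growth factors, had 292 and 98.7 CPM at day 3, against 1737 and 802 CPM at day 1 (log2 change -2.70 ± 0.56, adjusted p = 0.0288). The Igfbp3 call ended without day 1 replicate 1 (adjusted p = 0.129) or day 3 replicate 2 (0.113). In 4 of these 5 genes both day 3 libraries were still above both sham libraries; Nppc was the exception. Vegfa, the growth factor of blood vessels, had 78.5 and 41.2 CPM at day 3, against 289 and 170.2 CPM at day 1 (log2 change -1.94 ± 0.42, adjusted p = 0.0318) and 27.4 and 35.9 CPM in sham. The Vegfa call ended without day 1 replicate 1, day 3 replicate 2, either day 7 library or either day 21 library (adjusted p between 0.0514 and 0.144).

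Membrane proteins and enzymes that fell included Dll4, a Notch ligand of sprouting vessels, with 43.4 and 12.8 CPM at day 3, against 352 and 136 CPM at day 1 (log2 change -3.12 ± 0.60, adjusted p = 0.0207). The Dll4 call ended without day 1 replicate 1 (adjusted p = 0.102) or day 3 replicate 2 (0.0693). Gprc5a, an orphan receptor, had 3.16 and 1.15 CPM at day 3, against 71.2 and 30.8 CPM at day 1 (log2 change -4.60 ± 0.75, adjusted p = 0.0093). The Gprc5a call ended without day 1 replicate 1 (adjusted p = 0.0568) or day 3 replicate 2 (0.0549). Plaur, the receptor of urokinase, had 180.1 and 93.5 CPM at day 3, against 1236 and 394 CPM at day 1 (log2 change -2.58 ± 0.54, adjusted p = 0.0285). The Plaur call ended without day 1 replicate 1, day 3 replicate 2, either day 7 library or day 21 replicate 2 (adjusted p between 0.051 and 0.144). For each of the 3 the lower day 1 library was still above the higher day 3 library. Star, which moves cholesterol into mitochondria for steroid synthesis, had 0.759 and 0.329 CPM at day 3, against 25 and 18.8 CPM at day 1 (log2 change -5.40 ± 0.88, adjusted p = 0.0093). The Star call ended without day 3 replicate 2 (adjusted p = 0.0705). Both day 3 libraries of Star lay below its sham level of 1.19 and 1.52 CPM. Neu2, a sialidase, had 1.65 and 1.11 CPM at day 3, against 21.7 and 8.82 CPM at day 1 (log2 change -3.48 ± 0.77, adjusted p = 0.0374). The Neu2 call ended without any 1 library other than day 1 replicate 2 or day 60 replicate 1 or day 60 replicate 2 (adjusted p between 0.0522 and 0.182). Exons of Neu2 overlap Ngef on the opposite strand. Galnt15, which starts mucin-type sugar chains, had 3.73 and 2.01 CPM at day 3, against 20.3 and 13.6 CPM at day 1 (log2 change -2.57 ± 0.55, adjusted p = 0.0322). The Galnt15 call ended without either day 1 library, day 3 replicate 2, day 7 replicate 1 or either day 21 library (adjusted p between 0.0507 and 0.15). Mfge8, a bridge between dying cells and phagocytes, had 347 and 311 CPM at day 3, against 762 and 1168 CPM at day 1 (log2 change -1.55 ± 0.33, adjusted p = 0.0328). The Mfge8 call ended without any 1 library other than day 1 replicate 1 or day 60 replicate 2 (adjusted p between 0.052 and 0.15). Sham stood at 413 and 424 CPM, below both day 1 libraries and above both day 3 libraries.

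Growth and metabolic genes of day 1 also fell. Odc1, the first enzyme of polyamine synthesis (chromosome 12, 17544794 to 17551505), had 184 and 152 CPM at day 3, against 820.3 and 836 CPM at day 1 (log2 change -2.30 ± 0.35, adjusted p = 0.00649), with 60.1 and 69.6 CPM in sham. The replicates were close on each day, and the call held without any 1 library. Of 20 genes of translation and ribosome biogenesis 3 (15%) fell and 0 rose, with 7 falls under the replicate block 0 without day 1 replicate 1 or either day 3 library, and 1 without either library of day 7 or sham. The list's median was -0.94, and for 19 of the 20 both day 1 libraries lay above both sham libraries. Polr1a, the largest subunit of RNA polymerase I, had 11.5 and 11.3 CPM at day 3, against 46.9 and 33.5 CPM at day 1 (log2 change -1.82 ± 0.36, adjusted p = 0.0224). The Polr1a call ended without day 1 replicate 1 (adjusted p = 0.103), day 3 replicate 2 (0.0983) or day 3 replicate 1 (0.0744). Rrp9, a ribosomal RNA processing factor, had 30.4 and 42.8 CPM at day 3, against 133 and 117 CPM at day 1 (log2 change -1.78 ± 0.40, adjusted p = 0.0418). The Rrp9 call ended without any 1 library other than day 21 replicate 1 or day 21 replicate 2 (adjusted p between 0.0508 and 0.17). Nop56, a core nucleolar protein, had 54.7 and 69.4 CPM at day 3, against 238 and 132 CPM at day 1 (log2 change -1.58 ± 0.37, adjusted p = 0.0476). The Nop56 call ended without any 1 library other than day 1 replicate 2 (adjusted p between 0.0625 and 0.22). Day 3 levels of Polr1a and Rrp9 were near sham. Exons of Rrp9 overlap Parp3 and those of Nop56 overlap Idh3b on the opposite strand.

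Cholesterol genes fell in part. Astrocytes make much of the brain's cholesterol, and the pathway's genes share control by sterol levels. Of 22 genes, 5 (22.7%) fell and 0 rose, 21 had a negative value, and the median was -1.21. With the replicate block 10 fell. The count was 0 without day 3 replicate 2, 1 without day 3 replicate 1 or day 1 replicate 1, and 2 without day 1 replicate 2. Sqle, squalene epoxidase, had 40.4 and 52.5 CPM at day 3, against 159 and 137 CPM at day 1 (log2 change -1.67 ± 0.32, adjusted p = 0.0197). The Sqle call ended without either day 1 library or either day 3 library (adjusted p between 0.0568 and 0.0949). Hsd17b7, a later enzyme of the pathway, had 12.2 and 14.4 CPM at day 3, against 65.1 and 43.1 CPM at day 1 (log2 change -2.02 ± 0.38, adjusted p = 0.0192). The Hsd17b7 call ended without day 1 replicate 1 (adjusted p = 0.104), day 3 replicate 1 (0.0778) or day 3 replicate 2 (0.0695). Insig1, the sterol-regulated brake of the pathway, had 12 and 12 CPM at day 3, against 53.1 and 47.1 CPM at day 1 (log2 change -2.06 ± 0.42, adjusted p = 0.027). The Insig1 call ended without either day 1 library or either day 3 library (adjusted p between 0.0711 and 0.126). For these 3 genes both day 1 libraries lay above both sham libraries. Sc5d, a sterol desaturase, fell too. At day 3 both libraries lay below both sham libraries for 10 of the 22 genes.

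Antioxidant genes gave fewer falls. Of 18, 3 (16.7%) fell and 0 rose, with 7 falls and 1 rise under the replicate block, 1 fall without day 3 replicate 2 and 0 without day 1 replicate 1 or day 3 replicate 1. Nqo1, a quinone reductase, had 25.6 and 30.6 CPM at day 3, against 124 and 78.5 CPM at day 1 (log2 change -1.85 ± 0.32, adjusted p = 0.0116). The Nqo1 call ended without day 1 replicate 1 (adjusted p = 0.0749) or day 3 replicate 1 (0.0602). Gclm, a subunit of the first enzyme of glutathione synthesis, had 173 and 163 CPM at day 3, against 738 and 404 CPM at day 1 (log2 change -1.76 ± 0.34, adjusted p = 0.0211). The Gclm call ended without day 1 replicate 1 (adjusted p = 0.1), day 3 replicate 2 (0.0999) or day 3 replicate 1 (0.0702). Hmox1, heme oxygenase 1, had 245 and 316 CPM at day 3, against 846 and 631 CPM at day 1 (log2 change -1.40 ± 0.32, adjusted p = 0.0436). The Hmox1 call ended without any 1 of the 12 libraries (adjusted p between 0.058 and 0.178). All 3 genes were still above sham in both day 3 libraries, with sham at 4.06 and 3.6 CPM for Hmox1. Of 22 genes of endoplasmic reticulum stress and the amino acid response 1 rose and 1 fell. Sdf2l1, a chaperone cofactor, had 128 and 101 CPM at day 3, against 40.7 and 29.9 CPM at day 1 (log2 change 1.69 ± 0.36, adjusted p = 0.0308). The Sdf2l1 call ended without either day 1 library, either day 3 library, either day 7 library or either day 21 library (adjusted p between 0.0501 and 0.115). Asns, asparagine synthetase, had 49.5 and 53.2 CPM at day 3, against 119.6 and 133 CPM at day 1 (log2 change -1.30 ± 0.29, adjusted p = 0.0379). The Asns call ended without any 1 library other than day 60 replicate 2 (adjusted p between 0.0557 and 0.141). The chaperone Hspa5 was at 1494 and 1544 CPM at day 3, against 1866 and 1087 CPM at day 1 (log2 change 0.04 ± 0.36, adjusted p = 0.983), with overlapping libraries. Of 14 heat shock chaperones 1 fell, and 2 fell with the replicate block. Named after its values were seen, Hsph1, a co-chaperone of Hsp70, had 86.1 and 99.4 CPM at day 3, against 252 and 254 CPM at day 1 (log2 change -1.45 ± 0.33, adjusted p = 0.0441). The Hsph1 call ended without any 1 library other than day 60 replicate 2 (adjusted p between 0.0521 and 0.165). Of 25 hypoxia and glycolysis genes 1 fell, Vegfa, and 2 fell with the replicate block.

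Few genes of astrocyte identity passed the test. Of 31 astrocyte identity genes, 1 fell and 0 rose, with 6 falls under the replicate block, 7 without day 1 replicate 1 and 0 without any other 1 library except day 60 replicate 2, and the median was -0.93. A negative value was found for 25 of the 31. For 11 both day 3 libraries lay below both day 1 libraries, which was so for 17% of all genes. Slc39a12, a zinc transporter, had 7.15 and 11.4 CPM at day 3, against 22.6 and 84.7 CPM at day 1 (log2 change -2.53 ± 0.56, adjusted p = 0.0373). The Slc39a12 call ended without any 1 library other than day 1 replicate 1 or day 60 replicate 2 (adjusted p between 0.0577 and 0.175). Slc1a3, the glutamate transporter GLAST, had 236 and 261 CPM at day 3, against 414 and 1096 CPM at day 1 (log2 change -1.60 ± 0.45, adjusted p = 0.0904). Both day 3 libraries lay below both day 1 libraries, and Slc1a3 passed with the replicate block (adjusted p = 0.0413) or without day 1 replicate 1 (0.03). Slc1a2, the glutamate transporter GLT-1, had 205 and 234 CPM at day 3, against 247 and 786 CPM at day 1 (log2 change -1.24 ± 0.74, adjusted p = 0.471). The water channel Aqp4 had 47.3 and 61.2 CPM at day 3, against 45.7 and 134 CPM at day 1 (log2 change -0.73 ± 0.57, adjusted p = 0.62). The gap junction gene Gja1 had 262 and 232 CPM at day 3, against 822 and 387 CPM at day 1 (log2 change -1.29 ± 0.51, adjusted p = 0.241). None of the last 3 passed, and the Aqp4 libraries of the 2 days overlapped. Gpc5, a heparan sulfate proteoglycan, had 7.4 and 16.5 CPM at day 3, against 54.8 and 108 CPM at day 1 (log2 change -2.77 ± 0.46, adjusted p = 0.0103) and 73.4 and 58.2 CPM in sham. The Gpc5 call ended without day 1 replicate 2 (adjusted p = 0.0568). Grin2c, a glutamate receptor subunit, had 9.18 and 12.3 CPM at day 3, against 23.2 and 70.5 CPM at day 1 (log2 change -2.12 ± 0.51, adjusted p = 0.0496). The Grin2c call ended without any 1 library other than day 1 replicate 1 (adjusted p between 0.0684 and 0.23). It was the only 1 of 20 glutamate and GABA receptor genes that changed.

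Most markers of reactive astrocytes were above sham on both days: of 13 pan-reactive genes, 12 had both day 3 libraries and 13 had both day 1 libraries above both sham libraries. Other lists were alike at day 1, with 22 of 22 matrix protease genes and 19 of 19 NF-kB genes above sham. The share of all genes above sham was not taken. Gfap had 1469 and 4143 CPM at day 3, against 443 and 1599 CPM at day 1 (log2 change 1.46 ± 0.62, adjusted p = 0.283), with 161 and 175 CPM in sham, and its libraries of the 2 days overlapped, replicate 2 being higher than replicate 1 on both days. Vim had 1269.9 and 1238 CPM at day 3, against 1143 and 1069 CPM at day 1 (log2 change 0.18 ± 0.31, adjusted p = 0.863), with 132 and 153 CPM in sham. Serpina3n, a protease inhibitor, had 28.7 and 117 CPM at day 3, against 66.3 and 113 CPM at day 1 (log2 change -0.29 ± 0.65, adjusted p = 0.902), and its sign turned to positive without day 1 replicate 2 or day 3 replicate 1. Stat3, a transcription factor of the reactive state, had 274 and 281 CPM at day 3, against 486 and 510.4 CPM at day 1 (log2 change -0.85 ± 0.38, adjusted p = 0.311). Exons of Stat3 overlap Stat5a on the opposite strand. Of the pan-reactive genes 1 fell (Lcn2) and 0 rose, and of 11 A1-associated and 13 A2-associated genes 0 changed in edgeR's test, with 2 and 6 at an unadjusted p under 0.05. With the replicate block 1 A1-associated gene rose and 2 A2-associated genes fell, and by DESeq2 1 rose and 1 fell in the first list and 1 rose and 4 fell in the second. Of 23 cytoskeletal and related genes of reactive glia 3 (13%) rose and 0 fell, with 5 rises and 1 fall under the replicate block, and 1 rise without day 1 replicate 1. Lgals1, galectin 1, had 785 and 603 CPM at day 3, against 123 and 125 CPM at day 1 (log2 change 2.49 ± 0.36, adjusted p = 0.00507), held without any 1 library. S100a6, a calcium-binding protein, had 201 and 120.1 CPM at day 3, against 21.2 and 32.2 CPM at day 1 (log2 change 2.59 ± 0.39, adjusted p = 0.00649). The S100a6 call ended without day 1 replicate 1 (adjusted p = 0.0577). Anxa1, annexin A1, had 256 and 517 CPM at day 3, against 57.7 and 57.6 CPM at day 1 (log2 change 2.74 ± 0.50, adjusted p = 0.0152). The Anxa1 call ended without day 1 replicate 1 (adjusted p = 0.1), day 1 replicate 2 (0.0717) or day 3 replicate 2 (0.0686). Fabp7, the fatty acid binding protein of radial glia, had 219 and 632 CPM at day 3, against 14.1 and 105 CPM at day 1 (log2 change 2.84 ± 0.80, adjusted p = 0.0925), which did not pass but passed with the replicate block (adjusted p = 0.0348) or without day 1 replicate 2 (0.0174).

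Collagen and fibroblast genes had positive values throughout. Of 19, 5 (26.3%) rose and 0 fell, all 19 were positive, and the median was 2.37. With the replicate block 13 rose, and without 1 library the count lay between 0 (without day 1 replicate 1) and 9 (without day 3 replicate 1). It was 1 when day 3 replicate 2 was left out, 2 when day 1 replicate 2 was, and 3 without either library of day 7 or day 21. The list took 0.878% and 2.71% of counts at day 3, 0.277% and 0.367% at day 1 and 0.0185% and 0.023% in sham. Col5a1, a minor fibrillar collagen, had 125 and 377 CPM at day 3, against 14.7 and 33.6 CPM at day 1 (log2 change 3.38 ± 0.66, adjusted p = 0.0211). The Col5a1 call ended without day 1 replicate 1 (adjusted p = 0.131) or day 3 replicate 2 (0.0969). Mgp, matrix Gla protein, had 260.5 and 475 CPM at day 3, against 50 and 70.7 CPM at day 1 (log2 change 2.61 ± 0.43, adjusted p = 0.00931). The Mgp call ended without day 1 replicate 1 (adjusted p = 0.0793). Postn, periostin, had 43.8 and 176 CPM at day 3, against 9.23 and 14.4 CPM at day 1 (log2 change 3.22 ± 0.72, adjusted p = 0.0397). The Postn call ended without either day 1 library, day 3 replicate 2, either day 7 library or either day 21 library (adjusted p between 0.0632 and 0.215). Col6a1, a chain of collagen VI, had 110.2 and 302 CPM at day 3, against 31.1 and 40.2 CPM at day 1 (log2 change 2.53 ± 0.59, adjusted p = 0.0444). The Col6a1 call ended without any 1 library other than day 3 replicate 1 or sham replicate 2 (adjusted p between 0.0531 and 0.218). For each of these genes day 3 replicate 2 was the highest of the 4 libraries. Col1a1, the main chain of collagen I, had 571 and 4395 CPM at day 3, against 15.1 and 287 CPM at day 1 (log2 change 4.04 ± 1.39, adjusted p = 0.172). It spread widely within each day and did not pass, but passed with the replicate block (adjusted p = 0.02).

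Matrix proteases and their partners went both ways. Of 22, 2 rose and 2 fell (Plaur among the falls), with 3 rises and 5 falls under the replicate block, and 0 of either without day 1 replicate 1 or day 21 replicate 2. Timp2, an inhibitor of metalloproteinases, had 548 and 593 CPM at day 3, against 149 and 150.3 CPM at day 1 (log2 change 1.93 ± 0.42, adjusted p = 0.0345). The Timp2 call ended without either day 1 library, either day 3 library, either day 21 library or day 60 replicate 1 (adjusted p between 0.0508 and 0.157). Thbs1, thrombospondin 1, had 702 and 248 CPM at day 3, against 104 and 99.4 CPM at day 1 (log2 change 2.23 ± 0.52, adjusted p = 0.0473). The Thbs1 call ended without any 1 library other than day 3 replicate 2 or day 60 replicate 1 or day 60 replicate 2 (adjusted p between 0.0673 and 0.193). Adamts4, a protease of proteoglycans, had 86.4 and 57.9 CPM at day 3, against 376 and 145 CPM at day 1 (log2 change -1.85 ± 0.44, adjusted p = 0.0478). The Adamts4 call ended without any 1 library other than day 1 replicate 2 (adjusted p between 0.0657 and 0.23). Exons of Adamts4 overlap a coding gene on the opposite strand. Tnc, tenascin C, had 75.2 and 72.6 CPM at day 3, against 401 and 311 CPM at day 1 (log2 change -2.27 ± 0.55, adjusted p = 0.0536), just short of a call, and passed with the replicate block (adjusted p = 0.0113), without either sham library (0.0232 and 0.0231) or without day 60 replicate 2 (0.0486). The Mmp genes of the list were not called. Mmp3 had 76.9 and 359 CPM at day 3, against 963 and 1021 CPM at day 1 (log2 change -2.19 ± 1.0, adjusted p = 0.319). Mmp12 had 22.7 and 35 CPM at day 3, against 139 and 42.1 CPM at day 1 (log2 change -1.65 ± 0.57, adjusted p = 0.178). Exons of Mmp12 overlap Mmp1b on the opposite strand. Timp1 had 181 and 384 CPM at day 3, against 356 and 557 CPM at day 1 (log2 change -0.69 ± 1.31, adjusted p = 0.88), with overlapping libraries. Kng1, a kininogen gene, had 2.02 and 21.2 CPM at day 3, against 0 and 0.372 CPM at day 1 (log2 change 5.59 ± 1.25, adjusted p = 0.045). The Kng1 call ended without any 1 library other than day 3 replicate 1 or sham replicate 1 or sham replicate 2 (adjusted p between 0.0695 and 0.191).

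Vascular genes are given by cell type. Of 13 pericyte and smooth muscle genes 2 (15.4%) rose and 0 fell, with 4 rises and 1 fall under the replicate block and 1 rise without day 1 replicate 1. Acta2, smooth muscle actin, had 162 and 159 CPM at day 3, against 31 and 31.1 CPM at day 1 (log2 change 2.37 ± 0.31, adjusted p = 0.0034), with 272 and 347 CPM in sham, and held without any 1 library. Tagln, transgelin, had 65.3 and 68.2 CPM at day 3, against 14.5 and 18.9 CPM at day 1 (log2 change 2.0 ± 0.31, adjusted p = 0.00729), with 73.8 and 73.5 CPM in sham. The Tagln call ended without day 1 replicate 1 (adjusted p = 0.0651). Its exons overlap Pcsk7 on the opposite strand. Both genes were below sham at day 1. Of 15 endothelial markers 0 changed in edgeR's test (6 had an unadjusted p under 0.05), with a median of -1.48, 2 falls under the replicate block, 4 by DESeq2 and 6 without day 3 replicate 1. Their sum took 0.622% and 0.153% of counts at day 3 and 1.12% and 0.8% at day 1, with day 3 replicate 2 the lowest. For Il11, Dll4, Igfbp3 and Vegfa, too, day 3 replicate 2 was the lowest of the 4 libraries, and the part that endothelial content had in these falls was not tested.

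**Figure D4:**
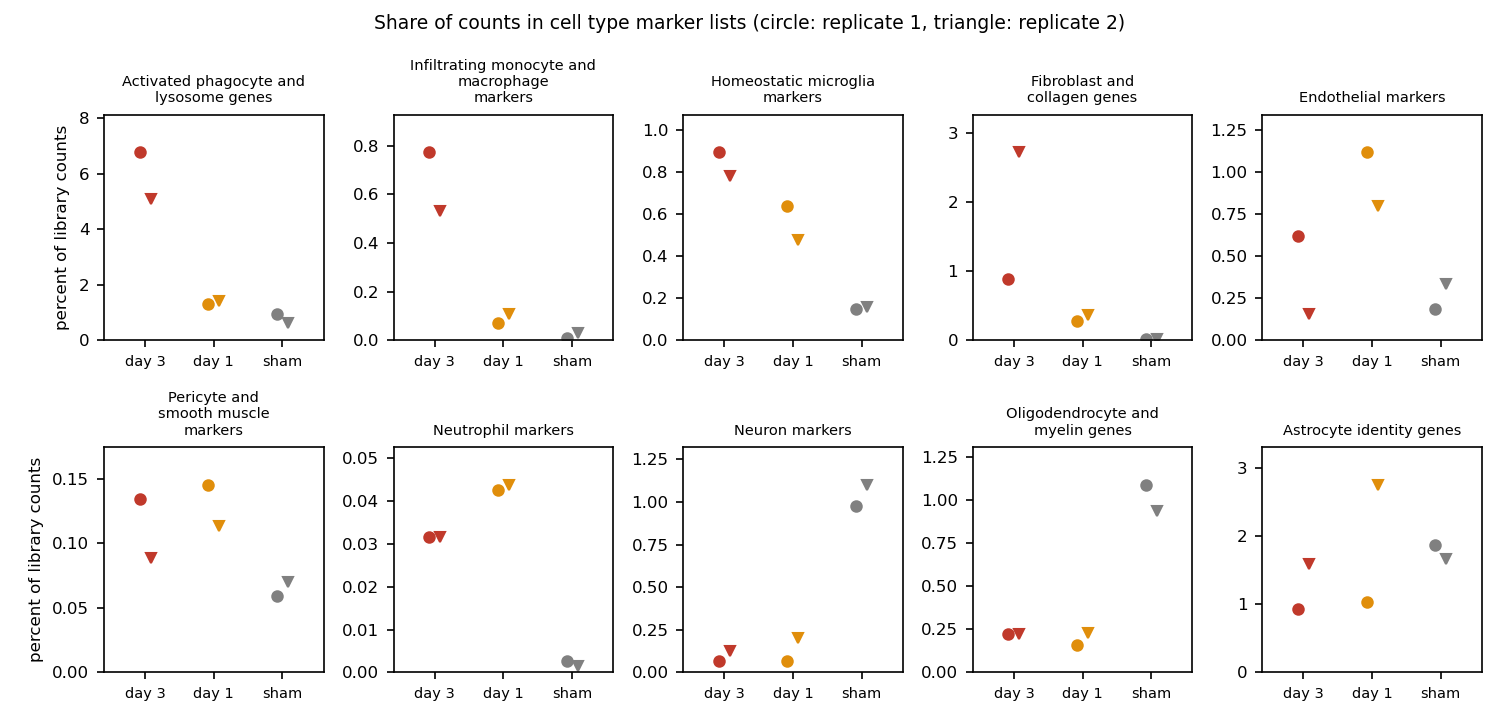
Percent of each library's counts in 10 marker lists, for day 3, day 1 and sham (circles replicate 1, triangles replicate 2; each axis starts at 0). Phagocyte and macrophage lists are higher in both day 3 libraries than at day 1, fibroblast genes are highest in day 3 replicate 2, and the endothelial list is lowest on either day in day 3 replicate 2.

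The remaining lists held few calls. The 18 genes of interleukin 6 signalling had 1 fall, Il11, and 0 rises, with 1 rise and 2 falls under the replicate block. Il6 itself had 29.1 and 4.28 CPM at day 3, against 50.8 and 22.3 CPM at day 1 (log2 change -1.14 ± 0.85, adjusted p = 0.593), and its libraries overlapped. Tnf, Zbp1 and Dll1 were the only called members of 3 lists and are named after their values were seen. Tnf, the cytokine, rose among 19 genes of NF-kB and interleukin 1 signalling, with 149 and 78.9 CPM at day 3, against 21.3 and 9.42 CPM at day 1 (log2 change 2.89 ± 0.55, adjusted p = 0.0195). The Tnf call ended without day 1 replicate 2 (adjusted p = 0.0812) or day 3 replicate 1 (0.0569). Zbp1, a nucleic acid sensor, rose among 28 interferon-stimulated genes, with 14.9 and 19.9 CPM at day 3, against 7.67 and 5.18 CPM at day 1 (log2 change 1.44 ± 0.34, adjusted p = 0.0488). The Zbp1 call ended without any 1 library other than day 3 replicate 1 or day 60 replicate 1 (adjusted p between 0.0521 and 0.163). Dll1, a Notch ligand, fell among 22 neural stem cell genes, with 2.47 and 3.87 CPM at day 3, against 19.1 and 12.6 CPM at day 1 (log2 change -2.31 ± 0.51, adjusted p = 0.036). The Dll1 call ended without any 1 library other than day 60 replicate 1 or day 60 replicate 2 (adjusted p between 0.051 and 0.177). With the replicate block each of these lists had more calls, namely 1 rise and 2 falls, 1 rise and 1 fall, and again 1 rise and 2 falls. In edgeR's test 0 genes changed among 18 inhibitors and p53 targets, 21 immediate early genes, 15 oligodendrocyte, 12 precursor, 17 neuron, 12 choroid plexus and 3 erythroid markers, 23 respiration genes and 27 ribosomal proteins. By DESeq2 these lists had 1, 1, 3, 6, 2, 1, 2, 1 and 1 changes, in that order, and with the replicate block 2, 3, 1, 3, 0, 0, 1, 1 and 0. Their members with an unadjusted p under 0.05 numbered 3, 3, 5, 8, 3, 2, 2, 4 and 4. Over all genes 2522 (16.1%) had an unadjusted p under 0.05. A list without calls could still shift. The 12 oligodendrocyte precursor markers had a median of 1.59, with 10 positive and 2 negative values. For 9 of them both day 3 libraries lay above both day 1 libraries, and for 1 both lay below. For 15 of the 27 ribosomal proteins both lay above and for 0 below, with a median of 0.56. Over all genes both lay above for 20.4% and below for 17%.

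Replicates 1 and 2 differ in depth, so list medians were also taken within each, as 1 day 3 library over 1 day 1 library with no test. The mitosis list had a median log2 ratio of 4.29 within replicate 1 and 4.90 within replicate 2, and the macrophage list 2.88 and 3.01. The microglia list had 3.13 and 2.72, the fibroblast list 2.04 and 2.56, and the cholesterol list -1.27 and -1.18. These lists kept their sign in both. Astrocyte identity genes had -0.45 within replicate 1 and -1.20 within replicate 2, and endothelial markers -0.95 and -2.23. Pericyte and smooth muscle genes had opposite signs, 0.50 within replicate 1 and -1.10 within replicate 2. So did neuron markers (0.30 and -0.72), oligodendrocyte genes (0.96 and -0.04), neutrophil recruitment ligands (0.33 and -0.34) and immediate early genes (0.35 and -0.03). The same held for MHC class I genes (-0.01 and 0.16), A1-associated genes (0.01 and -0.03) and cytoskeletal genes (-0.12 and 0.21). These medians reuse the libraries of the fit, so they are no separate test of it.

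The other groups place the interval in time, by group means and with no test. How the highest means of all tested genes spread over the groups was not counted, so the counts by list have no background share. Over sham and days 1, 3, 7, 21 and 60, all 30 mitosis genes and 29 of 30 S-phase genes had their highest mean at day 3. For Cdk1 the libraries stood at 1.49 and 3.26 CPM in sham, day 1 at 0.5 and 2.16 CPM, day 3 at 36 and 88.5 CPM, day 7 at 24.4 and 27.3 CPM, day 21 at 2.91 and 4.62 CPM and day 60 at 1.6 and 2.68 CPM. Macrophage markers had their highest mean at day 3 in 13 of 22 genes. Lyz2, which is not among these 13, stood at 13.1 and 13.6 CPM in sham, day 1 at 65.9 and 187 CPM, day 3 at 4108 and 3194 CPM, day 7 at 4281 and 5467 CPM, day 21 at 1113 and 2178 CPM and day 60 at 1226 and 1690.4 CPM. Its highest mean was at day 7, and it remained above sham to the last time. In other lists, 13 of 25 phagocyte genes, 9 of 15 microglia genes and 15 of 19 fibroblast genes had their highest mean at day 7. Postn stood at 1.19 and 2.86 CPM in sham, day 1 at 9.23 and 14.4 CPM, day 3 at 43.8 and 176 CPM, day 7 at 889.5 and 1333 CPM, day 21 at 548 and 678 CPM and day 60 at 406 and 928 CPM. The highest mean fell at day 1 for 18 of 20 ribosome biogenesis genes, 15 of 22 cholesterol genes, 12 of 15 endothelial markers and 9 of 18 antioxidant genes. Il11 stood at 0.836 and 0.0577 CPM in sham, day 1 at 1005 and 743 CPM, day 3 at 14.2 and 2.27 CPM, day 7 at 0.806 and 1.26 CPM, day 21 at 0.672 and 0.842 CPM and day 60 at 0 and 0.239 CPM. Of the 483 genes called higher, 204 had their highest mean at day 7 and 188 at day 3, and of the 75 called lower 60 had it at day 1. Of the 483, 201 had a mean below sham at day 1 and above sham at day 3, and 260 had both means above sham. Of the 75, 45 had both means above sham and 20 were above sham at day 1 and below it at day 3. Counts of called genes are partly fixed by the calls, which rest on these same libraries. A gene called higher cannot have its highest mean at day 1, nor a gene called lower at day 3. Where the called genes lie against sham is tilted by the same selection.

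**Figure D5:**
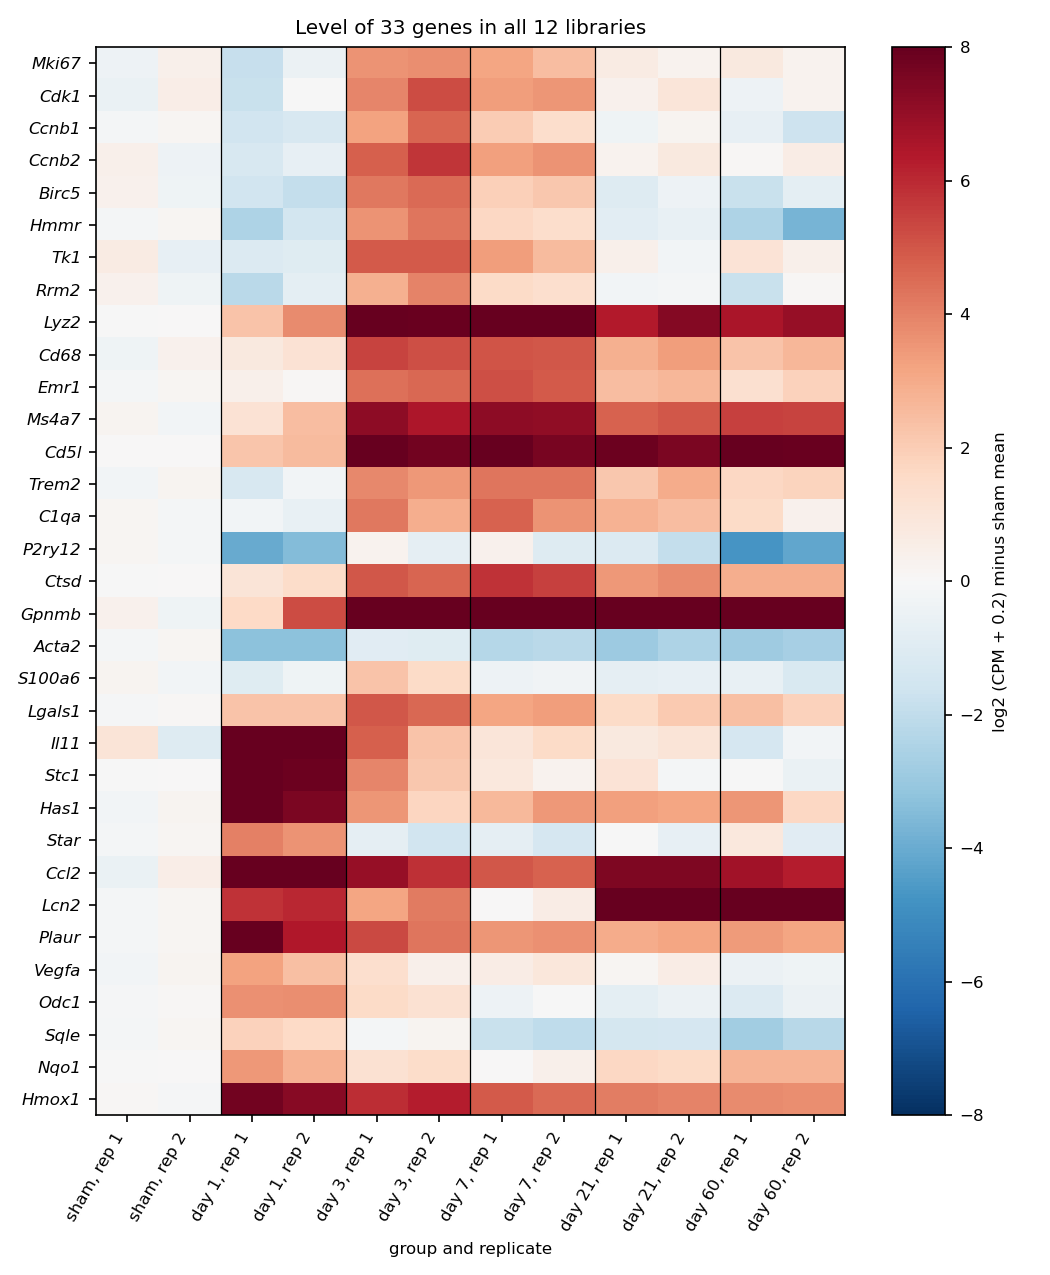
Log2 (CPM + 0.2) minus the sham mean of 33 genes in all 12 libraries, in order of time (colour scale limited to -8 and 8). Division genes from Mki67 to Rrm2 are highest at day 3, Lyz2, Cd68, Ms4a7 and Cd5l stay above sham through day 60, and Il11 and Stc1 are far above sham at day 1 and nearer to it from day 3 on.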

How the data were processed

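Total RNA of sorted astrocytes was sequenced in 12 libraries, 2 for each of sham and days 1, 3, 7, 21 and 60 after stroke, and the 2 libraries of day 3 were compared with the 2 of day 1. The deposited values are raw counts per gene symbol; the authors used Bowtie2 2.3.4.2, HTSeq 0.6.1 and the build mm10, per the submitters' processing notes. The gene annotation and the strand setting are not given in the sources used here. All 189288 values of the series table were identical to those of the 12 single-library files.

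The deposited counts were analysed with edgeR 4.0.16 in R 4.3.3. Of 15774 genes, 15635 passed filterByExpr with a minimum count of 10. TMM factors ran from 0.689 to 1.215. A quasi-likelihood model with 1 mean per group was fitted to all 12 libraries (6 residual degrees of freedom, prior 4.15, median biological coefficient of variation 0.408), and day 3 was tested against day 1 with Benjamini-Hochberg adjustment over all tested genes. Totals were 13006008 to 16575045 counts in the replicates numbered 1 and 97056596 to 156128922 in those numbered 2. Intervals and bounds cover counting error only.

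The labels number the replicates 1 and 2 in every group. Same-numbered libraries deviated together from their group means, with correlations across genes of 0.319 to 0.713 in 15 pairs of groups (0.527 for days 1 and 3), all over 0.1, so the number was also used as a block. Other alternatives were DESeq2 1.42.0, DESeq2 size factors, library totals, no filter, the 4 libraries alone, thinning, a threshold of 0.01 and leaving out each library.

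Gene lists (42, with 802 entries, 16 of them not found in the table) and genes to name were chosen with earlier results of these data known. Named by rule were the 15 larger changes each way with at least 10 CPM in the higher group and no overlap, up to 4 members of each list, landmark genes, and the 5 most abundant called genes each way. Genes named outside the rule are said to be so or are given as called list members without values. Positions and overlaps are from GENCODE M21 on GRCm38 (187 of 189 named genes matched), and promoters from RefSeq on GRCm38.p6. Results of a few genes are not reported here. The main test was also run on simulated counts drawn from the means and spread of these data. That simulation held no replicate effect, and its outcome is not given here.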

Additional observations from a re-analysis of the deposited data

How the results depend on the processing

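Against 558 genes (483 higher, 75 lower), the replicate block gave 1313 (991 and 322), the 4 libraries alone 0 (0 and 0), and the block with the 4 libraries alone 2222 (1329 and 893), an alternative added after seeing the data. Thinning each library to the smallest total gave 349 (315 and 34), DESeq2's Wald test 1436 (1104 and 332) and an adjusted p under 0.01 gave 190 (184 and 6). DESeq2 size factors gave 553, library totals 471 and no filter on low counts 559. Leaving out 1 library gave 239 to 557 genes, 208 to 500 higher and 17 to 116 lower. The stricter threshold and thinning act by construction; for the rest the cause was not tested. Of the 558 calls, 558 held with the replicate block, 557 by DESeq2 (476 genes had no adjusted p there) and 326 after thinning. Of 95 described calls, 95 held with the block or DESeq2's test, 94 with DESeq2 size factors or no filter, 82 with library totals, 66 after thinning and 0 with the 4 libraries alone. None of these 95 changed direction under any alternative. By DESeq2, list counts that differed from those of edgeR included S-phase genes (18 higher), fibroblast genes (15), MHC class II genes (8), antioxidant genes (1 higher, 7 lower), cholesterol genes (9 lower), ribosome biogenesis (8 lower) and astrocyte identity genes (8 lower).

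The replicate block ended no call and, among the genes described, added 6: Col1a1, Fabp7, S100a8, Serping1, Slc1a3 and Tnc. Over all alternatives their adjusted p ran from 4.925e-11 to 0.541 for Col1a1, 9.514e-09 to 0.484 for Fabp7, 3.177e-07 to 0.429 for S100a8, 0.000236 to 0.348 for Serping1, 0.00348 to 0.482 for Slc1a3 and 1.235e-06 to 0.2 for Tnc. Apart from the counts given above and beside the lists, the block changed no other call described. Leaving out 1 library turned the sign of 3 genes that were not called: Serpina3n ranged from -1.64 to 0.42, Aqp4 from -1.32 to 0.32 and Hspa5 from -0.22 to 0.47. With 2 libraries a group and replicate 1 at 13006008 to 16575045 counts, low genes have few counts in replicate 1. Many calls ended when 1 library was left out, as given beside each gene. For many of them this could also be a library of sham or of a day outside the comparison. Leaving out a library also lowers the residual degrees of freedom, and what ended each call was not tested. Strand-specific counting is not stated, so genes that overlap another on the opposite strand may share its reads.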

Other observations

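Some of the called genes were not counted at all on one of the days. At day 1, 17 of the genes called higher had 0 counts in both libraries, and at day 3, 3 of the genes called lower had 0 counts in both. The genes named here were chosen after their values were seen, and the folds are bounds against 3 counts over the 2 libraries of a day. Ska1, a subunit of the complex that couples kinetochores to microtubules, had 5.19 and 13.3 CPM at day 3 and was at least 513-fold higher than at day 1. Depdc1a, a gene of dividing cells, had 4.62 and 7.67 CPM at day 3 and was at least 305-fold higher. Gen1, a resolvase of DNA junctions, had 4.49 and 5.59 CPM at day 3 and was at least 228-fold higher. All 3 were detected in both sham libraries. Rapsn, which clusters acetylcholine receptors at the muscle synapse, had 11.5 and 6.11 CPM at day 3 and was at least 285-fold higher. Chrng, the fetal subunit of the same receptor, had 0 counts at day 3 and 10.2 and 4.96 CPM at day 1, and was at least 238-fold lower at day 3.

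A set of genes separated the 2 replicates of every group whatever the day. In all 6 groups, 100 genes were over 8 times higher in replicate 2 than in replicate 1 (CPM + 0.2), and 1 gene was over 8 times lower. A gene with such a split within each group could hardly be called between days in a fit without the replicate number, so the test says nothing of these genes. Members of the gene lists among them are Gapdh and Eno1 (hypoxia and glycolysis), C1rb and C4b (complement), Ccl19 (chemokines) and Ly6c2 (monocyte and macrophage markers). H2-Q1, an MHC class I gene, had 0.19 and 1255 CPM at day 3 and 0.556 and 1748 CPM at day 1. Eno1, a glycolytic enzyme, had 0 and 591 CPM at day 3 and 0 and 603 CPM at day 1. Snrpn, an imprinted splicing gene, had 0.0633 and 441 CPM at day 3 and 0 and 628 CPM at day 1. Ppp2r3d, a phosphatase subunit gene, went the other way, with 17.3 and 0.585 CPM at day 3 and 16.3 and 0.641 CPM at day 1. The cause was not tested.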
